A study of Arabidopsis thaliana with 24 samples.

Results

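The 48 genes described here are expansins, expansin-like genes and xyloglucan endotransglucosylase/hydrolases (XTH) of Arabidopsis thaliana listed by locus, out of 27664 genes in the deposited data. They comprise 16 alpha-expansins (EXPA), 2 beta-expansins (EXPB), 4 expansin-like genes (EXLA, EXLB) and 26 XTH genes. The list was set by gene family and not by a measured value, though with earlier results of these data known. It does not hold every gene of these families, so counts and shares below are those of the listed genes. Messenger RNA was sequenced from rosette leaves of 24-day-old plants that had spent 12 days on plates and 12 days in soil, in 24 libraries and 6 groups of 4. The grf6 grf8 double mutant was sampled after 0, 2 and 4 h of dehydration, and wild type (WT) after the same 0, 2 and 4 h. How the leaves were dried, the alleles of the mutant and the number of plants per library are not given in the sources used here. Nothing states that replicates came from separate sets of plants, so p-values measure the spread between these libraries.

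Expansins loosen the growing wall by weakening contacts between cellulose microfibrils and the hemicelluloses around them, without cutting a polymer. XTH enzymes cut xyloglucan, the main hemicellulose of such walls, and join the cut end to another chain, or in a few members to water. Both families are large because members differ in organ, cell type and signal, and in leaves they are known for their part in cell enlargement and in the response to touch, shade and drying. The 2 mutated genes belong to the 14-3-3 family, whose proteins dock onto phosphorylated partners.

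The library totals were 17365357 to 22380487 counts. Levels below are CPM, each count as a share of its library's scaled total, written per 1e6, and levels are set between genes only as FPKM, which is per transcript length. GRF6 averaged 307, 77.7 and 49.2 CPM at 0, 2 and 4 h in grf6 grf8 and 1573, 734 and 597 CPM in WT, and GRF8 averaged 83.0, 84.9 and 57.4 CPM in grf6 grf8 and 290.0, 122 and 106 CPM in WT. The 6 mesophyll markers were detected in every group, with summed levels of 7395 to 28080 CPM in grf6 grf8 and 3458 to 30160 CPM in WT, and their sums were lower at 2 h and 4 h than at 0 h. Their part in the results was not tested, and fewer cells of a type and less RNA per cell cannot be told apart. In 5 libraries the 12 markers of dividing tissue stood high, with a mean score of 0.815 to 2.31 (log2) against −0.753 to 0.248 in the other 19: grf6 grf8 replicate 1 at 0 h and replicates 1 and 2 at 4 h, and WT replicate 4 at 2 h and at 4 h. All 12 of these markers had counts in every group, and their summed level reached 69.5 CPM in grf6 grf8 and 63.0 CPM in WT. Of the 5 shoot meristem markers, WUS and CLV3 were at 0 in 5 and 6 of the 6 groups. The summed level of the 5 was 13.3 and 7.47 CPM in the grf6 grf8 libraries of 4 h named above, with 0.117 and 0.321 CPM in their group mates, and 23.7 CPM in WT replicate 4 of 4 h, with at most 0.225 CPM in its mates. It was 1.88 CPM in grf6 grf8 replicate 1 of 0 h and 0.682 CPM in WT replicate 4 of 2 h, with at most 0.779 and 0.36 CPM in their mates. Calls that ended without the 5 libraries are named below.

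Of the 48 genes, 37 passed the filter on low counts. A gene that passed through 1 group where it is high had more room to differ than one that is even, so the counts below describe the 37. The 11 others were EXPA2, EXPA7, EXPA12, EXPA14, EXLA3, XTH1, XTH3, XTH17, XTH20, XTH21 and XTH26. XTH1 and XTH26 had 0 counts in all 24 libraries, which allows up to 0.00656 CPM over the pooled total (3 counts, counting error only). XTH26 and EXPA7 are known from root hairs, EXPA2 from germinating seeds and XTH21 from roots. Just outside the filter, XTH17 reached 16 counts in its highest library, EXLA3 reached 9 and EXPA14 reached 8. Just inside it, EXPB1 reached 46, XTH31 reached 68 and XTH16 reached 70.

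Before dehydration the leaf wall-loosening set was led by XTH transcripts. XTH24 (MERI5, AT4G30270) had the highest level, 342 ± 102 FPKM in grf6 grf8 and 229 ± 30.7 FPKM in WT (SD, n = 4 each). XTH27 (AT2G01850), known from tracheary elements of leaf veins, followed with 168 ± 13.0 FPKM in grf6 grf8 and 154 ± 15.6 FPKM in WT. XTH22 (TCH4, AT5G57560), the touch-induced member, had 159 ± 59.0 FPKM in grf6 grf8 and 94.1 ± 30.0 FPKM in WT. EXPA1 (AT1G69530), a leaf and guard-cell alpha-expansin, was the leading expansin with 72.7 ± 15.1 FPKM in grf6 grf8 and 115 ± 50.6 FPKM in WT. XTH22, XTH4 and EXPA1 did not differ in order beyond their spread.

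Dehydration was followed by lower transcript levels of many members and by a steep rise of 1 alpha-expansin, in both genotypes. At 2 h, 16 of 37 members fell and 1 rose in grf6 grf8, where 20.3% of all 18841 genes tested fell and 23.2% rose. In WT 11 of 37 fell and 3 rose at 2 h, where 19.2% of all genes fell and 23.1% rose. At 4 h, 14 fell and 6 rose in grf6 grf8 (23.1% and 28.1% of all genes), and 9 fell and 6 rose in WT (22.2% and 27.8% of all genes). The 9 of 37 that fell in WT at 4 h were close to the share over all genes. The median log2 fold change of the 37 at 2 h was −1.29 in grf6 grf8 and −0.65 in WT, beside 0.01 and 0.04 over all genes. At 4 h it was −0.63 in grf6 grf8 and −0.27 in WT, beside 0.07 and 0.06. Calls are edgeR quasi-likelihood tests with Benjamini-Hochberg adjusted p under 0.05 over all genes. The responses of a genotype at 2 h and 4 h share its 0 h libraries.

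**Figure D1:**
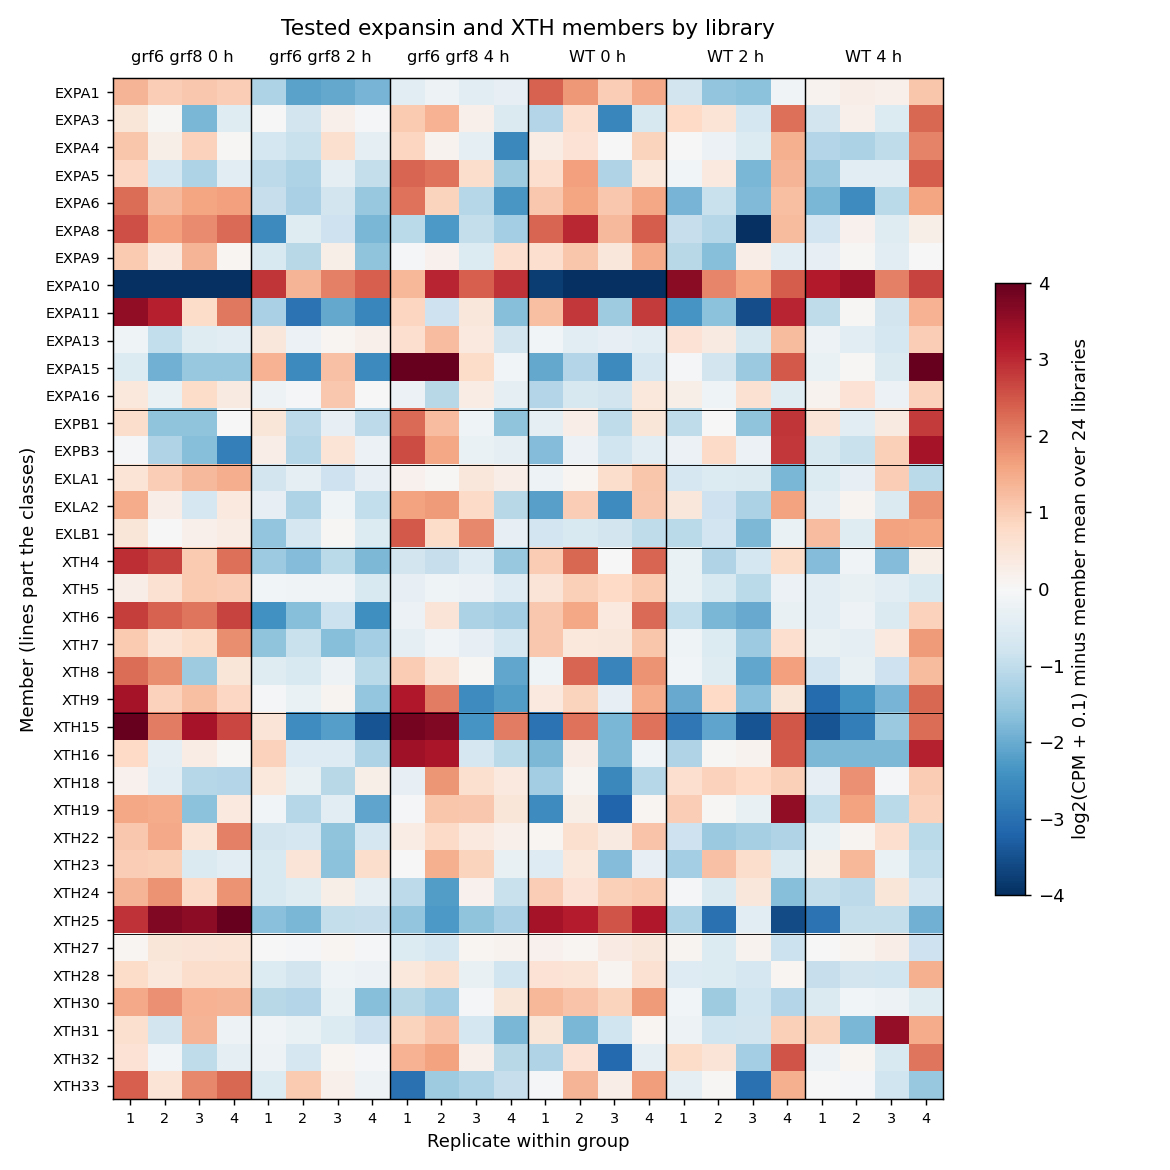
Levels of the 37 tested members in each library, as log2(CPM + 0.1) minus the member's mean over the 24 libraries (red above, blue below), with genotypes and times in columns and classes parted by lines. EXPA10 is low in all 8 libraries of 0 h and high in the 16 others, XTH25 is the reverse, and single red columns mark libraries with a high dividing tissue score.

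The 11 members that fell at 2 h in WT (EXPA1, EXPA8, EXPA9, EXLA1, XTH4, XTH5, XTH6, XTH22, XTH24, XTH25 and XTH30) were all among the 16 that fell in grf6 grf8. The other 5 called in grf6 grf8 were EXPA6, EXPA11, XTH7, XTH15 and XTH28. At 4 h, 8 members fell in both genotypes, which is 57.1% of those called in grf6 grf8 and 88.9% of those called in WT. No overlap of calls over all genes is given, so the overlaps at 2 h and 4 h show no trait particular to the members. By class, XTH4 to XTH9 had 4 of 6 tested members lower in grf6 grf8 and 3 of 6 lower in WT at each time. Of the 12 tested alpha-expansins, 5 fell in grf6 grf8 and 3 fell in WT at 2 h. Over all genes 20.3% and 23.1% fell in grf6 grf8 at 2 h and 4 h, and 19.2% and 22.2% fell in WT. Counts on classes this small are given as values.

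**Figure D2:**
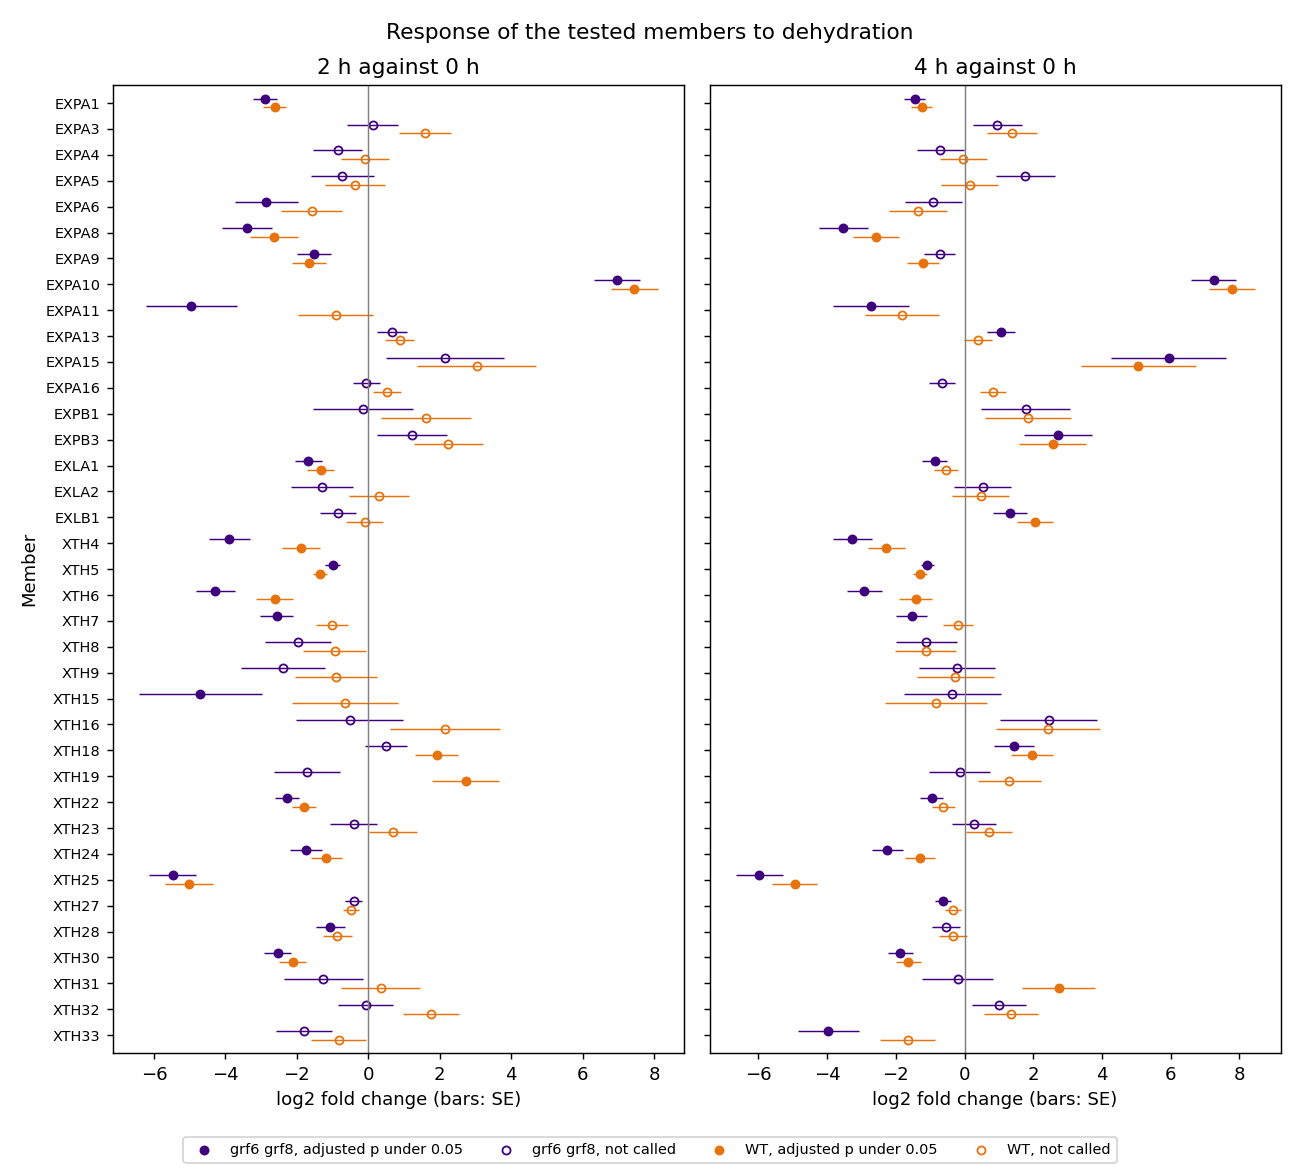
Log2 fold change of each tested member at 2 h (left) and 4 h (right) against 0 h, in grf6 grf8 (purple) and WT (orange), with bars for the standard error and filled points for adjusted p under 0.05. EXPA10 lies near 7 in all 4 responses and XTH25 near −5, and most filled points lie left of 0.

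EXPA10 (AT1G26770), an alpha-expansin known for its part in leaf growth and pedicel abscission, was the member with the steepest rise. In grf6 grf8 its levels were 2.64, 1.06, 2.76 and 0.996 CPM at 0 h, 353, 125, 198 and 258 CPM at 2 h, and 123, 399.6, 256 and 363 CPM at 4 h. In WT they were 3.37, 1.71, 0.845 and 0.762 CPM at 0 h, 594, 187, 144 and 261 CPM at 2 h, and 441, 534, 196 and 318 CPM at 4 h. Each dehydrated library stood far above each 0 h library of either genotype, so the times did not overlap. The log2 fold change at 2 h was 6.96 (SE 0.64, adjusted p = 5.3e-08) in grf6 grf8 and 7.44 (SE 0.66, adjusted p = 2.78e-08) in WT. At 4 h it was 7.25 (SE 0.65) in grf6 grf8 and 7.77 (SE 0.67) in WT, and the call held under every alternative tried. The group means stood 125-fold above 0 h in grf6 grf8 and 177-fold above it in WT at 2 h.

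With that rise the composition of the alpha-expansin transcripts changed. EXPA10 made up 0.896% of the summed FPKM of the 16 alpha-expansins at 0 h in grf6 grf8, 79.4 ± 6.36% at 2 h and 69.8 ± 17.4% at 4 h (SD, n = 4). In WT its share was 0.631% at 0 h, 73.2 ± 13.6% at 2 h and 72.7 ± 13.9% at 4 h. The other 15 alpha-expansins together averaged 164, 39.8 and 84.8 FPKM at 0, 2 and 4 h in grf6 grf8 and 194, 80.9 and 110.5 FPKM in WT. In WT the library with a high dividing tissue score had 185.2 FPKM at 2 h, beside 34.2 to 57.7 FPKM in its group mates. At 4 h in WT it had 256.5 FPKM beside 56.2 to 69.9 FPKM. In grf6 grf8 the libraries with a high score had 124.8 and 113.5 FPKM at 4 h beside 61.4 and 39.3 FPKM, and 242 FPKM at 0 h beside 130.6 to 153.1 FPKM. All 16 listed summed to 166, 208 and 296 FPKM in grf6 grf8 and to 195, 302 and 381 FPKM in WT. The ranges of neighbouring times overlapped. By FPKM EXPA10 ranked 30th of the 48 at 0 h in grf6 grf8 and was the highest member at 2 h and 4 h in both genotypes.

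**Figure D3:**
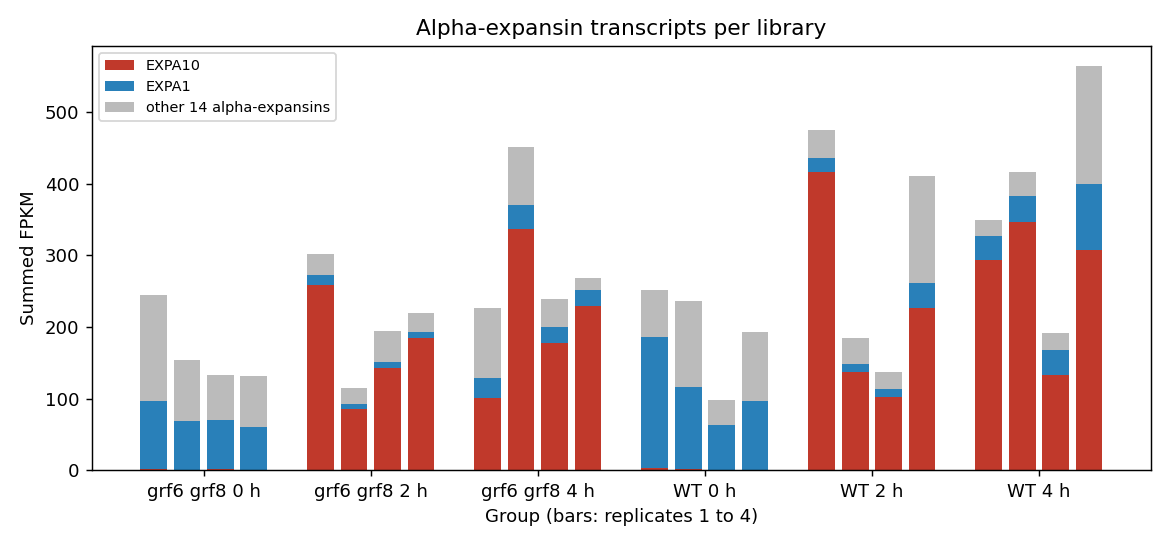
Summed FPKM of the 16 alpha-expansins in each library, split into EXPA10 (red), EXPA1 (blue) and the other 14 (grey), with 4 replicates per group side by side. EXPA1 and the grey members hold the 0 h bars, and EXPA10 holds most of each bar at 2 h and 4 h, except in grf6 grf8 replicate 1 of 4 h, where its share is 44.8%.

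EXPA1 moved in the other direction. Its levels in grf6 grf8 were 111, 86.5, 92.8 and 85.8 CPM at 0 h, 18.4, 9.91, 10.4 and 11.9 CPM at 2 h, and 32.7, 38.2, 32.0 and 34.4 CPM at 4 h. In WT they were 226, 145, 86.4 and 126 CPM at 0 h, 26.4, 14.6, 14.0 and 39.5 CPM at 2 h, and 48.3, 53.1, 50.6 and 94.2 CPM at 4 h. The 2 h libraries lay below every 0 h library, and 4 h lay between, with 1 WT library of 4 h above the lowest of 0 h. EXPA1 fell by 2.90 on the log2 scale in grf6 grf8 (SE 0.33, adjusted p = 7.76e-07) and by 2.62 in WT (SE 0.33, adjusted p = 1.98e-06) at 2 h. At 4 h against 2 h it rose by 1.44 in grf6 grf8 (SE 0.32, adjusted p = 0.00567) and by 1.38 in WT (SE 0.31, adjusted p = 0.0138). The WT call ended without replicate 2 of 2 h (1.20, adjusted p = 0.0615) and with only the groups compared in the fit (1.35, adjusted p = 0.198). Its mean at 4 h was 36.5% of that at 0 h in grf6 grf8 and 42.1% in WT.

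The promoters of this pair are shown because both hold the same 8-letter palindrome although the genes moved in opposite directions. The windows are the 300 bases before the gene start in RefSeq, build TAIR10.1, written 5′ to 3′. EXPA10 lies at chr1:9259432-9261313 on the plus strand and its window is chr1:9259132-9259431. EXPA1 lies at chr1:26141726-26143538 on the plus strand and its window is chr1:26141426-26141725. Capitals mark the palindrome CACATGTG, TGTCTC (a core bound by auxin response factors) and CACACG, the reverse strand of CGTGTG (a core bound by brassinosteroid-response factors).
EXPA10: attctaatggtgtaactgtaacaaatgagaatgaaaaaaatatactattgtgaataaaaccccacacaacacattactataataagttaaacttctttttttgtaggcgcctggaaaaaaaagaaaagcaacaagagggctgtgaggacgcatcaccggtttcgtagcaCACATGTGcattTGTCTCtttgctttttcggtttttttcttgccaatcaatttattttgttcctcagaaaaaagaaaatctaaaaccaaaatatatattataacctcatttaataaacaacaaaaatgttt
EXPA1: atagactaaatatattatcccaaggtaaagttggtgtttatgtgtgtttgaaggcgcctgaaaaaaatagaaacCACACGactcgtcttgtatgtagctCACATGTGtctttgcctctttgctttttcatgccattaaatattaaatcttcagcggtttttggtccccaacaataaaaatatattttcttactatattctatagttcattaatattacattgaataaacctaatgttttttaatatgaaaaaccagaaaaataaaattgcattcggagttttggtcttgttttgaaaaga
The palindrome begins 131 bases before the start of EXPA10 and 201 bases before that of EXPA1, and it reads CATGTG, a core bound by NAC factors, on both strands. Of all 27443 protein-coding promoters of this length 126 hold it, or 0.459%, and of the 48 members these 2 do. The palindrome was picked because this pair holds it, so these figures are no test of how often members hold it. Each pair of promoters was also searched for its longest identical run on the same strand. EXPA10 and EXPA1 share 14 bases, ctctttgctttttc, close downstream of the palindrome, and the other 46 members share 8 to 12 bases with EXPA10 (median 9). Their coding sequences match at 79.7% of aligned bases. Over all 48 members, CATGTG on either strand was in 22.9% of promoters beside 13.1% of all promoters, ACGTG (a core bound by abscisic acid response factors) in 25% beside 25.6%, CCGAC (a core bound by DREB factors) in 16.7% beside 13.9%, TGTCTC in 14.6% beside 13% and CGTGTG in 14.6% beside 6.11%. CACGTG, which holds ACGTG, was in 2.08% of member promoters beside 7.09% of all promoters. A match is a run of letters, and binding was not measured.

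EXPA8 (AT2G40610) had 34.0, 17.9, 21.0 and 27.4 CPM at 0 h, 0.888, 3.98, 3.13 and 1.51 CPM at 2 h, and 2.63, 1.06, 2.87 and 2.12 CPM at 4 h in grf6 grf8. In WT EXPA8 had 28.9, 46.3, 13.8 and 30.6 CPM at 0 h, 2.93, 2.52, 0.169 and 13.6 CPM at 2 h, and 3.27, 6.31, 3.97 and 6.57 CPM at 4 h. No dehydrated library reached a 0 h library, and levels at 2 h and 4 h lay in the same range. EXPA8 fell by 3.39 (SE 0.70, adjusted p = 0.000563) and 3.53 (SE 0.71) on the log2 scale at 2 h and 4 h in grf6 grf8, and by 2.63 (SE 0.67, adjusted p = 0.00328) and 2.57 (SE 0.67) in WT. EXPA3 and EXPA16 passed in none of the 4 responses. At 0 h they had 8.1 and 9.6 FPKM in grf6 grf8, where EXPA8 had 23.0 FPKM. In WT they had 6.7 and 5.6 FPKM, where EXPA8 had 27.8 FPKM. EXPA3 averaged 9.36, 10.2 and 18.1 CPM at 0, 2 and 4 h in grf6 grf8 and 7.83, 23.3 and 20.2 CPM in WT, and its 5 libraries with a high dividing tissue score had 15.3 to 54.2 CPM. EXPA16 averaged 10.5, 10.2 and 6.73 CPM in grf6 grf8 and 6.13, 8.79 and 10.9 CPM in WT.

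EXPA11 (AT1G20190) had a wide spread at 0 h. Its levels in grf6 grf8 were 52.2, 39.0, 7.42 and 19.4 CPM at 0 h, 1.72, 0.479, 0.997 and 0.633 CPM at 2 h, and 7.99, 2.46, 6.09 and 1.28 CPM at 4 h. In WT they were 10.3, 32.1, 1.58 and 31.0 CPM at 0 h, 0.770, 1.34, 0.281 and 37.3 CPM at 2 h, and 2.14, 4.57, 2.63 and 11.7 CPM at 4 h. It fell by 4.95 on the log2 scale at 2 h (SE 1.27, adjusted p = 0.00338) and by 2.72 at 4 h (SE 1.11, adjusted p = 0.0457) in grf6 grf8, and had −0.91 and −1.82 in WT without passing the test. The 4 h call in grf6 grf8 ended when any of 5 single libraries was left out, with adjusted p up to 0.108. In WT the 37.3 CPM at 2 h come from the library with the high dividing tissue score, whose 3 group mates had at most 1.34 CPM. EXPA6 fell at 2 h in grf6 grf8 by 2.85 on the log2 scale (SE 0.89, adjusted p = 0.0133). EXPA9 fell by 1.52 in grf6 grf8 and by 1.66 in WT at 2 h, from means of 2.24 and 2.55 CPM at 0 h.

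Among the XTH genes, XTH25 (AT5G57550) had the deepest fall. Its levels in grf6 grf8 were 8.87, 15.7, 14.2 and 32.7 CPM at 0 h, 0.278, 0.239, 0.522 and 0.536 CPM at 2 h, and 0.303, 0.144, 0.293 and 0.385 CPM at 4 h. In WT they were 12.0, 10.6, 6.81 and 10.9 CPM at 0 h, 0.411, 0.0515, 0.786 and 0 CPM at 2 h, and 0.0563, 0.515, 0.525 and 0.221 CPM at 4 h. All 16 dehydrated libraries lay below 1 CPM and all 8 others above 6. XTH25 fell by 5.47 (SE 0.66, adjusted p = 1.41e-06) and 5.98 (SE 0.69) on the log2 scale at 2 h and 4 h in grf6 grf8, and by 5.02 (SE 0.66, adjusted p = 4.27e-06) and 4.94 (SE 0.66) in WT. XTH25 passed the test of 4 h against 2 h in neither genotype.

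The promoter of XTH25 is shown as that of the member with the deepest fall. XTH25 lies at chr5:23304782-23306440 on the minus strand, 565 bases from XTH22 on the same strand, and the window is chr5:23306441-23306740. Capitals mark CACACGT, in which CGTGTG and ACGTG overlap on the reverse strand, and CACATG, which is CATGTG on the reverse strand.
XTH25: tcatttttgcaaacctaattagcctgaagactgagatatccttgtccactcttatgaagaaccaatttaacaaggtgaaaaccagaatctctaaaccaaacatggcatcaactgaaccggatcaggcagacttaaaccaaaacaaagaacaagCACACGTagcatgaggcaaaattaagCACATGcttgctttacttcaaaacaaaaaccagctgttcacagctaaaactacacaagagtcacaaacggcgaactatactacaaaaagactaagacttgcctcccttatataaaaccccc
These matches begin 147, 145 and 121 bases before the gene start, and none of the motifs searched is in the window of XTH22.

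XTH22 fell and came back in part. Its levels in grf6 grf8 were 139, 184, 95.0 and 265 CPM at 0 h, 39.3, 40.5, 21.1 and 40.7 CPM at 2 h, and 80.2, 111, 85.0 and 75.3 CPM at 4 h. In WT they were 68.6, 102, 83.5 and 143 CPM at 0 h, 36.6, 23.0, 25.6 and 28.4 CPM at 2 h, and 54.1, 69.9, 104 and 30.8 CPM at 4 h. At 2 h every library lay below every 0 h library, and at 4 h the range reached back into that of 0 h. XTH22 fell by 2.27 on the log2 scale in grf6 grf8 (SE 0.34, adjusted p = 2.11e-05) and by 1.80 in WT (SE 0.34, adjusted p = 0.00021) at 2 h. At 4 h against 2 h it rose by 1.31 in grf6 grf8 (SE 0.33, adjusted p = 0.014) and by 1.19 in WT (SE 0.33, adjusted p = 0.043). The WT call ended when any of 7 single libraries was left out, with adjusted p up to 0.165, and that in grf6 grf8 without replicate 3 of 2 h (adjusted p = 0.0521). It also ended in WT with only the groups compared in the fit (1.17, adjusted p = 0.195). The replicate block (adjusted p = 0.0623) and the fit with no low-count filter (adjusted p = 0.0524) ended it in WT too.

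**Figure D4:**
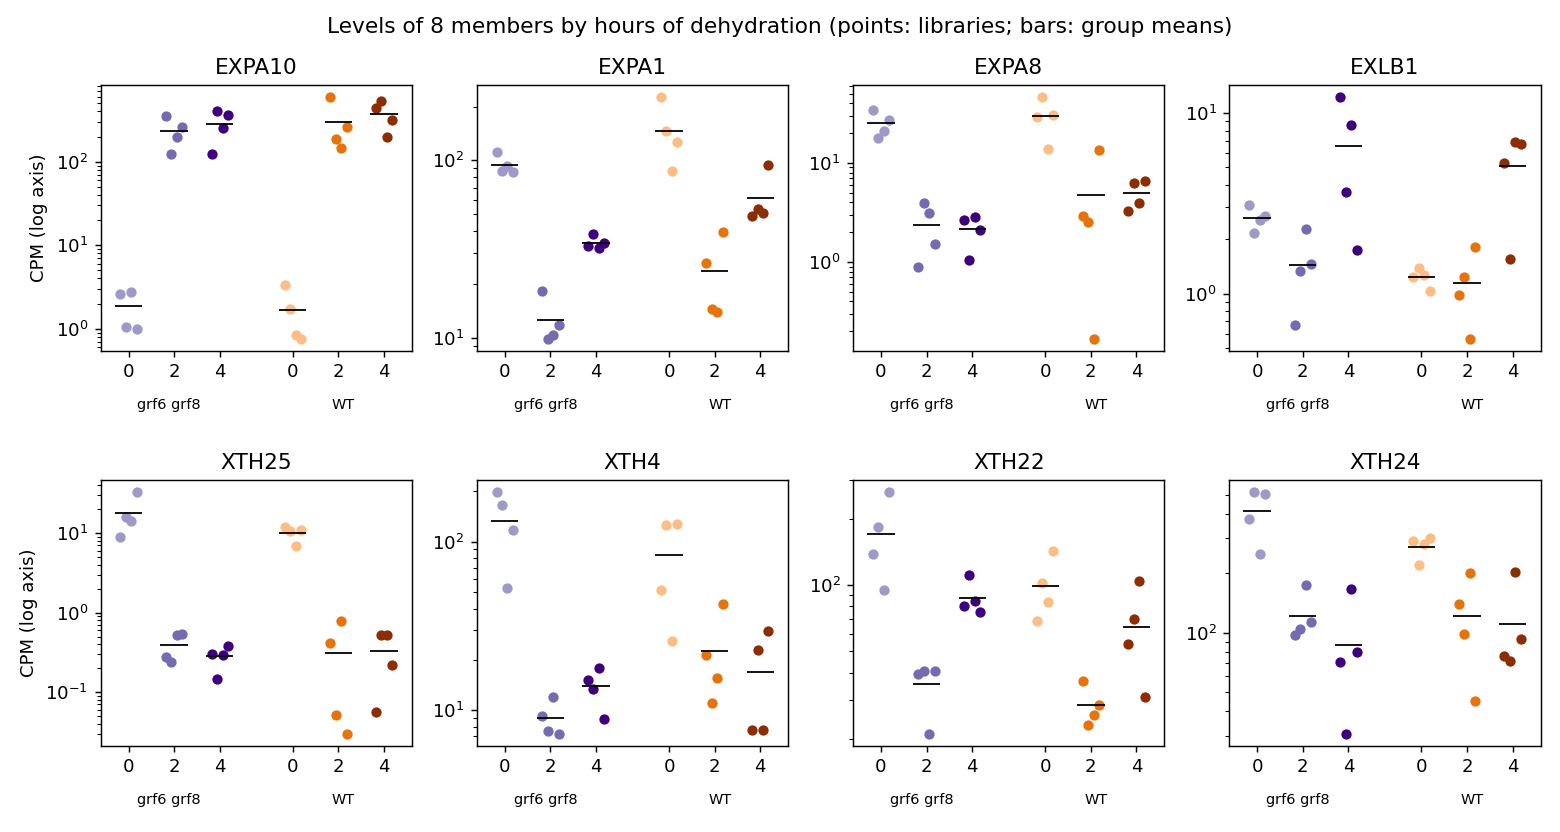
CPM of 8 members in each library (log axis, points) with group means (bars), for grf6 grf8 and WT at 0, 2 and 4 h; a value of 0 is drawn at 0.03. EXPA10 is near 1 to 3 CPM at 0 h and over 100 later, XTH25 drops below 1 CPM, and EXPA1 and XTH22 are lowest at 2 h.

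XTH4 (AT2G06850), a member with roles in stem and xylem growth together with XTH9, fell in both genotypes. In grf6 grf8 it had 197, 166, 53.2 and 118 CPM at 0 h, 9.27, 7.57, 12.0 and 7.26 CPM at 2 h, and 15.2, 13.4, 17.9 and 8.92 CPM at 4 h. In WT it had 51.7, 126, 25.9 and 128 CPM at 0 h, 21.2, 11.02, 15.6 and 42.5 CPM at 2 h, and 7.60, 22.9, 7.65 and 29.7 CPM at 4 h. In grf6 grf8 0 h stood apart from 2 h and 4 h, which overlapped, and in WT all 3 times overlapped, with replicate 3 low at 0 h. XTH4 fell by 3.89 (SE 0.58, adjusted p = 1.81e-05) and 3.27 (SE 0.56) in grf6 grf8 at 2 h and 4 h, and by 1.88 (SE 0.53, adjusted p = 0.00696) and 2.29 (SE 0.54) in WT, on the log2 scale.

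XTH6 (AT5G65730) had 45.5, 34.5, 29.8 and 44.0 CPM at 0 h, 1.17, 1.96, 3.61 and 1.12 CPM at 2 h, and 5.61, 9.44, 2.69 and 2.44 CPM at 4 h in grf6 grf8. In WT it had 14.2, 19.6, 8.71 and 32.0 CPM at 0 h, 3.29, 1.80, 1.57 and 5.36 CPM at 2 h, and 4.90, 5.73, 4.38 and 12.6 CPM at 4 h. The highest 4 h libraries of each genotype are those with a high dividing tissue score, and in WT 1 of them exceeds the lowest 0 h library. XTH6 fell by 4.28 (SE 0.55) and 2.92 (SE 0.51) at 2 h and 4 h in grf6 grf8, and by 2.62 (SE 0.51) and 1.42 (SE 0.49, adjusted p = 0.0194) in WT, on the log2 scale. The WT call at 4 h ended without WT replicate 4 of 0 h (log2 fold change −1.05, adjusted p = 0.0857) and without WT replicate 3 of 4 h (−1.26, adjusted p = 0.0586).

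XTH24, the highest member before dehydration, had 374, 515, 249 and 506 CPM at 0 h, 96.8, 104, 174 and 113 CPM at 2 h, and 71.0, 30.8, 165 and 79.9 CPM at 4 h in grf6 grf8. In WT it had 291, 219, 282 and 300 CPM at 0 h, 140.3, 98.3, 200.3 and 45.3 CPM at 2 h, and 76.2, 71.6, 204 and 92.8 CPM at 4 h. The 0 h libraries stood above all dehydrated ones, 2 h and 4 h overlapped, and in WT the highest dehydrated libraries lay close under the lowest 0 h library. XTH24 fell by 1.75 (SE 0.45, adjusted p = 0.00349) and 2.25 (SE 0.46) in grf6 grf8 at 2 h and 4 h, and by 1.17 (SE 0.44, adjusted p = 0.038) and 1.297 (SE 0.44, adjusted p = 0.0197) in WT, on the log2 scale. In WT the 2 h call ended without any of 6 single libraries (adjusted p up to 0.103), and the 4 h call without replicate 1 or replicate 2 of 4 h (adjusted p = 0.0621 and 0.0648).

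XTH30 (AT1G32170) varied little among replicates at 0 h and more in grf6 grf8 at 4 h. It had 16.8, 20.8, 15.3 and 15.3 CPM at 0 h, 2.66, 2.54, 4.84 and 1.71 CPM at 2 h, and 2.63, 2.22, 5.68 and 8.21 CPM at 4 h in grf6 grf8. In WT it had 14.7, 13.0, 10.98 and 19.0 CPM at 0 h, 5.34, 2.11, 3.31 and 2.53 CPM at 2 h, and 3.88, 5.41, 5.02 and 4.15 CPM at 4 h. All dehydrated libraries lay below all 0 h libraries. XTH30 fell by 2.53 (SE 0.38, adjusted p = 1.78e-05) and 1.87 (SE 0.37) in grf6 grf8 at 2 h and 4 h, and by 2.12 (SE 0.37, adjusted p = 0.000108) and 1.65 (SE 0.36) in WT, on the log2 scale. XTH5 fell by 1.00 to 1.36 in the 4 responses. XTH15 fell at 2 h in grf6 grf8 by 4.70 (SE 1.73, adjusted p = 0.0323), a call that ended without any of 4 single libraries (adjusted p up to 0.0844). In grf6 grf8 XTH15 had 21.9, 4.453, 10.72 and 6.975 CPM at 0 h and at most 1.498 CPM at 2 h. The 21.9 CPM came from the library with a high dividing tissue score. XTH27, which stayed the second member by FPKM at every time, fell at 4 h in grf6 grf8 by 0.63 (SE 0.24, adjusted p = 0.0306), and there its libraries with a high dividing tissue score had 119 and 106 CPM beside 183 and 193 CPM in the other 2. The call ended without the 5 libraries (log2 fold change −0.37, adjusted p = 0.0626) and without any of 5 single libraries (adjusted p up to 0.0864).

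A 4 h level nearer to that of 0 h was not seen in all members that had fallen at 2 h. The 4 h mean lay between those of 2 h and 0 h for 12 of the 16 members that fell at 2 h in grf6 grf8 and for 9 of the 11 in WT. These members were selected on their 2 h levels in the same libraries, which can place a 4 h mean nearer to 0 h by itself. No share over all fallen genes is given, so no return is read from these counts. Tested directly at 4 h against 2 h, 3 of 37 members rose in each genotype, where 6.34% of all genes rose in grf6 grf8 and 2.57% in WT. These were EXPA1, XTH22 and EXLB1 in both genotypes. None fell by edgeR or by DESeq2, where 5.79% of all genes fell in grf6 grf8 and 2.12% in WT. There were 12 members in grf6 grf8 and 6 in WT at an unadjusted p under 0.05 in either direction. Over all 18841 genes tested these counts were 5357 and 3793.

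EXLB1 (AT4G17030), an expansin-like gene, was the third of these. Its levels in grf6 grf8 were 3.09, 2.17, 2.54 and 2.67 CPM at 0 h, 0.666, 1.34, 2.28 and 1.46 CPM at 2 h, and 12.3, 3.66, 8.55 and 1.73 CPM at 4 h. In WT they were 1.24, 1.39, 1.27 and 1.03 CPM at 0 h, 0.976, 1.24, 0.562 and 1.80 CPM at 2 h, and 5.29, 1.55, 6.89 and 6.75 CPM at 4 h. In each genotype 3 of 4 libraries of 4 h stood clearly above 2 h and 1 did not. EXLB1 rose at 4 h against 2 h by 2.18 in grf6 grf8 (SE 0.51, adjusted p = 0.00862) and by 2.15 in WT (SE 0.52, adjusted p = 0.0187), on the log2 scale. The WT call ended without replicate 1 or 2 of 2 h, or without replicate 3 of 4 h (adjusted p = 0.0541, 0.0564 and 0.0542). With only the groups compared in the fit the call ended in WT (2.13, adjusted p = 0.152) and in grf6 grf8 (2.18, adjusted p = 0.0585).

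Apart from EXPA10, the members that rose did so from low levels. EXLB1 at 4 h in WT (adjusted p up to 0.00907) and XTH18 at 2 h in WT (up to 0.046) kept their calls under all 15 alternatives fitted for each, and the other calls of a rise ended under 1 or more. At 4 h EXLB1, EXPA15, EXPB3 and XTH18 were called higher in both genotypes, EXPA13 in grf6 grf8 and XTH31 in WT. EXPA15 (AT2G03090) had 19.9 and 15.8 CPM in the 2 grf6 grf8 libraries of 4 h with a high dividing tissue score beside 0.879 and 0.449 CPM in the other 2. In WT it had 14.9 CPM in the 1 such library of 4 h beside 0.292 to 0.515 CPM in the other 3. Without the 5 libraries the log2 fold change of EXPA15 at 4 h was 2.83 in grf6 grf8 (adjusted p = 0.0889) and 1.72 in WT (adjusted p = 0.219), against 5.94 (adjusted p = 0.0055) and 5.05 (adjusted p = 0.0161) with all. XTH31 at 4 h in WT was set by replicate 3 with 3.97 CPM, without which its log2 fold change was 1.29 (adjusted p = 0.326), and the call also ended without replicate 2, 3 or 4 of 0 h (adjusted p = 0.0936, 0.0912 and 0.0619). EXPB3 was no longer called in WT without replicate 4 of 4 h (0.83, adjusted p = 0.442) or in grf6 grf8 without replicate 1 of 4 h (1.87, adjusted p = 0.132). XTH18 lost its call in grf6 grf8 (0.86, adjusted p = 0.247) and in WT (1.37, adjusted p = 0.067) without replicate 2 of 4 h. In grf6 grf8 EXPA13 lost it without replicate 2 of 4 h (0.72, adjusted p = 0.172) and EXLB1 without replicate 1 of 4 h (0.82, adjusted p = 0.18). These were not the only losses. At 4 h in grf6 grf8, XTH18 kept its call under 5 of 15 alternatives, EXLB1 under 6, EXPA13 under 8 and EXPB3 under 10. EXLA1, called lower there, kept it under 7 of 16. In WT at 4 h EXPB3 kept it under 8 of 15 and XTH31 under 9 of 14. Without the 5 libraries EXPB3 had 1.72 in grf6 grf8 (adjusted p = 0.0539) and 0.83 in WT (adjusted p = 0.208) at 4 h. In grf6 grf8 at 4 h that fit also ended the calls of EXPA13 (0.59, adjusted p = 0.165), EXLB1 (1.08, adjusted p = 0.115), XTH18 (1.52, adjusted p = 0.076) and, among members that had fallen, EXLA1 (−0.86, adjusted p = 0.0638). At 2 h XTH18 and XTH19 rose in WT. XTH19 had 27.1 CPM in WT replicate 4 of 2 h, a library with a high score, beside 1.80 to 4.52 CPM in the other 3, and its call ended without that library (1.097, adjusted p = 0.306) and without the 5 (1.07, adjusted p = 0.311). The coding sequences of both genes match at 89.2% of aligned bases, so reads may have been split between them.

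In the libraries with a high dividing tissue score many members stood above their group mates. In grf6 grf8 the library of 0 h stood above its 3 group mates for 25 of 37 members. Both of 4 h stood above the other 2 for 17 of 37, below them for 5 and within their range for 15. In WT the library of 2 h stood above its mates for 26 of 37, and that of 4 h for 22 of 37. EXLA1 and XTH27 lay below the group mates in all 4 groups. XTH9 (AT4G03210), known from the shoot apex, had 20.7 and 9.25 CPM in the 2 such libraries of 4 h in grf6 grf8 beside 0.293 and 0.385 CPM, and 11.1 CPM in that of WT beside 0.169 to 0.525 CPM. No share over all genes is given beside these counts, so they show no trait particular to the members. The part of these markers in the members' levels was not tested.

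**Figure D5:**
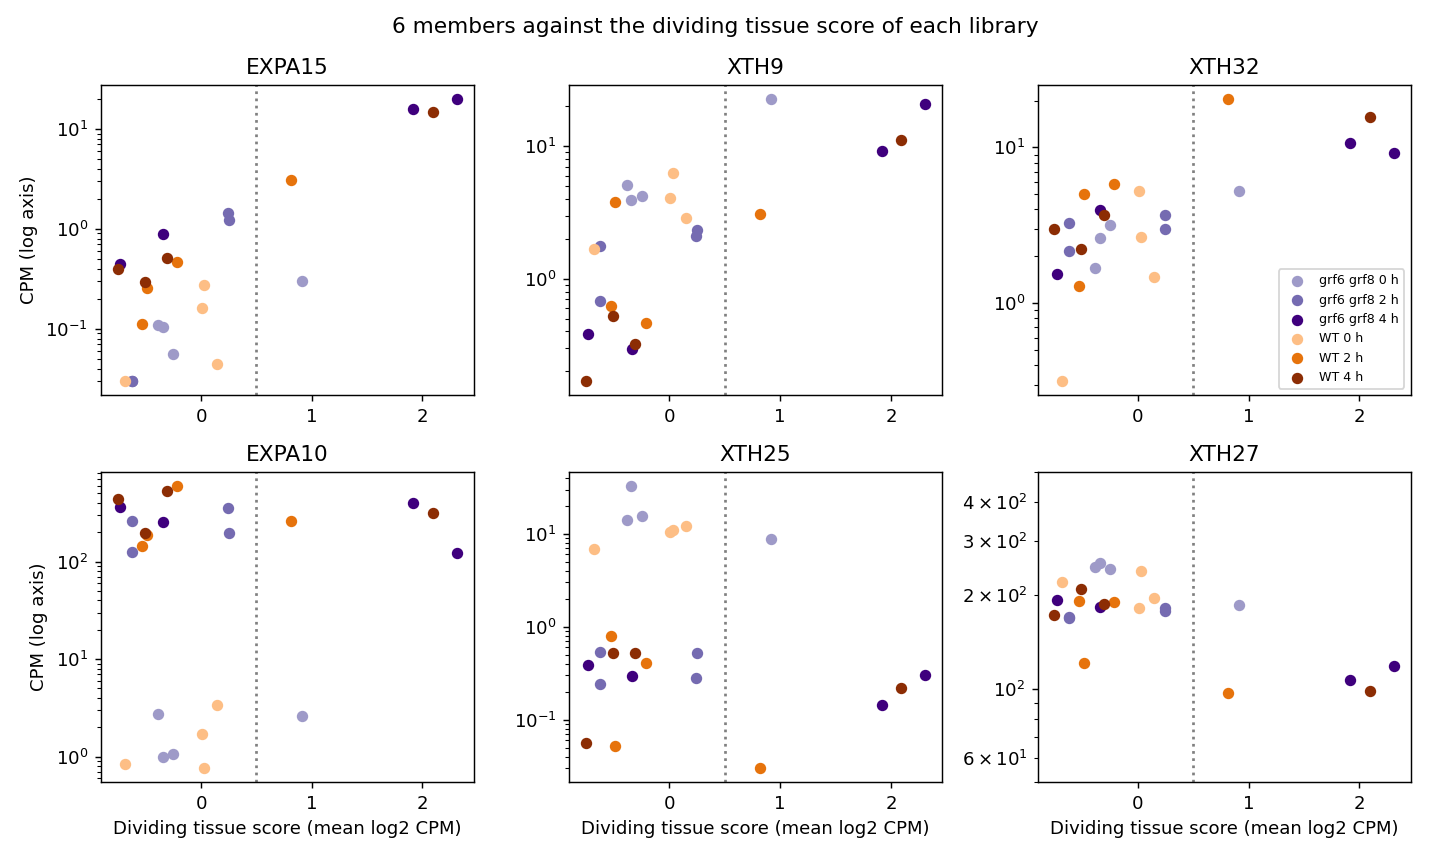
CPM of 6 members (log axis, 0 drawn at 0.03) against the dividing tissue score of each library, coloured by group, with a dotted line at 0.5. EXPA15 and XTH32 are highest in the 4 dehydrated libraries right of the line, XTH9 lies above its group mates in 4 of the 5 there, XTH27 lies below its group mates in all 5, and EXPA10 and XTH25 divide by time on both sides.

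Without those 5 libraries more members were called lower. In grf6 grf8, 18 members fell at 2 h and 16 at 4 h, where 27.2% and 29.7% of all genes fell. In WT, 18 fell at 2 h and 16 at 4 h, where 28.5% and 31.8% of all genes fell. EXPA10 was the 1 member called higher at 4 h in grf6 grf8, and EXPA10, EXLB1, XTH18 and XTH31 were called higher in WT. The median log2 fold change over the 35 members then tested was −1.36 and −1.15 at 2 h and 4 h in grf6 grf8, and −1.11 and −1.23 in WT. XTH9 fell at 4 h against 2 h in WT in this fit.

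The genotypes were compared at each time, over all times and in their responses. No member passed in any of the 6 comparisons by edgeR, where 1 to 16 of the 18841 genes did (0.0265% at 0 h, 0.0212% at 2 h, 0.0159% at 4 h, 0.0849% over the 3 times, 0.00531% for the difference of either response). At an unadjusted p under 0.05 there were 3 members at 0 h, 5 at 2 h, 2 at 4 h, 4 over the 3 times, and 5 and 3 for the genotype difference in the response at 2 h and in that at 4 h. Over all 18841 genes these counts were 547, 512, 731, 827, 467 and 449, in the same order. DESeq2 called 1 member, EXPA1, over the 3 times and none in the other 5 comparisons. EXPA1 averaged 94.1, 12.7 and 34.3 CPM at 0, 2 and 4 h in grf6 grf8 and 146, 23.7 and 61.5 CPM in WT. Its difference over the 3 times was −0.79 on the log2 scale (SE 0.18, edgeR adjusted p = 0.136, DESeq2 adjusted p = 0.00851). Without the 5 libraries it was −0.63 (adjusted p = 0.246), and over all alternatives the adjusted p ran from 0.00851 to 0.297.

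The response at 2 h was lower in grf6 grf8 than in WT for 34 of 37 members, with a median difference of −0.97 beside −0.01 over all genes, and no member passed. The values for XTH6 were −4.28 in grf6 grf8 and −2.62 in WT, for XTH4 −3.89 and −1.88, and for XTH7 −2.57 and −1.01. The libraries with a high dividing tissue score are 1 of 0 h in grf6 grf8 and 1 of 2 h in WT, and their part in this difference was not tested. Without the 5 libraries 20 of 35 members were lower and the median difference was −0.19. At 0 h, 29 of 37 members had a higher level in grf6 grf8 than in WT, with a median of 0.40, and 23 of 35 without the 5 libraries, with a median of 0.21. XTH22 had the smallest edgeR p there, with a log2 difference of 0.78 (SE 0.33, adjusted p = 1).

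Other wall genes gave mixed counts, apart from xyloglucan trimming. Over all genes at 4 h, 28.1% rose and 23.1% fell in grf6 grf8, and 27.8% rose and 22.2% fell in WT, and counts on lists this short are given as values. Of 3 genes for enzymes that take side sugars off xyloglucan, 2 fell in all 4 responses. BGAL10, a beta-galactosidase acting on xyloglucan, averaged 290, 29.1 and 19.8 CPM at 0, 2 and 4 h in grf6 grf8 and 256, 26.5 and 15.8 CPM in WT. It fell by 3.31 and 3.87 in grf6 grf8 at 2 h and 4 h, and by 3.28 and 4.02 in WT, on the log2 scale (SE 0.36 to 0.37). XYL1, the alpha-xylosidase, fell by 1.78 and 2.90 in grf6 grf8 and by 1.35 and 2.42 in WT. Of 13 xyloglucan synthesis genes, 2 rose and 3 fell in grf6 grf8 at 4 h, and 1 rose and 1 fell in WT, with CSLC6, a glucan synthase, higher by 0.78 in grf6 grf8 and 0.87 in WT, and XXT4, a xylosyltransferase, lower by −0.90 and −0.85. Of 9 tested genes of primary wall cellulose, 1 rose and 2 fell in grf6 grf8 at 4 h and 3 rose in WT, with the cellulose synthase subunit CESA5 higher by 1.21 in grf6 grf8 and 1.41 in WT. Of 7 tested pectin methylesterases and inhibitors, 1 rose and 3 fell in grf6 grf8 at 4 h and 1 rose and 2 fell in WT, with PME3 at −2.16 and −2.20. Of 9 tested plasma membrane proton pumps, which acidify the wall in which expansins work, 2 rose and 2 fell in grf6 grf8 at 4 h and 2 rose and 3 fell in WT, with AHA1 higher by 0.53 in grf6 grf8 and 0.50 in WT.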

How the data were processed

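RNA from the rosette leaves of 24 libraries had been sequenced by the authors. The deposited files give expected counts per gene (whole numbers as deposited) and FPKM. For build TAIR10, the submitters' processing notes list edgeR, DESeq2, RSEM, HISAT2, StringTie 1.3.1, fastp 0.18.0 and Bowtie2 2.2.8, without the role of each. The FPKM values are the authors' own and were used for levels only. Expected counts were fitted with edgeR 4.0.16 (R 4.3.3, TMM scaling, filterByExpr, quasi-likelihood, 1 mean for each of 6 groups, 12 contrasts), with Benjamini-Hochberg adjustment over 18841 genes and calls at adjusted p under 0.05. SE is the absolute log2 fold change over the square root of F. The fit was tested on simulated counts. Groups came from the titles, and replicate numbers were not used as pairs. Alternatives were RLE scaling, DESeq2 1.42.0, other filters, a replicate block, fewer groups, a 2-fold minimum, the dividing tissue score, and leaving out each library. The common dispersion was 0.108, a coefficient of variation of 32.9%, which limits the precision at 17365357 to 22380487 counts a library. Counting error adds little for members with high counts. It adds more for members with few counts, such as XTH25 with 0 to 14 counts in the dehydrated libraries. Strand use is not given in the sources used here. Coordinates, promoters and coding sequences are from RefSeq TAIR10.1. Protein sequences were not used. The members, the gene lists and the named-gene rule were chosen with earlier results of these data known. The rule takes, for each response against 0 h, up to 6 called members each way with a mean of at least 10 CPM in 1 group, every called member for other comparisons, and up to 3 called genes per wall list. EXPA3, EXPA6, EXPA9, EXPA13, EXPA15, EXPA16, EXPB3, EXLA1, XTH5, XTH7, XTH9, XTH15, XTH18, XTH19, XTH27, XTH31 and XTH32 were described beyond it after their values were seen, where it did not take them.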

Additional observations from a re-analysis of the deposited data

Results flagged for a closer look

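In 12 of 84 groups of 4 libraries, 1 library of a member lay apart from its 3 group mates by a gap beyond Dixon's 95% critical value for 4 samples. For independent normal values chance gives this in about 1 in 20 groups. The 84 groups are 14 members over the same 24 libraries, with some levels near 0 CPM, so that rate does not apply to the 12. At 2 h in WT replicate 4 had 37.3 CPM of EXPA11, 3.12 CPM of EXPA15 and 6.08 CPM of XTH15, against at most 1.34, 0.462 and 0.155 CPM in its group mates. At 4 h in WT replicate 4 had 12.6 CPM of XTH6, 94.2 CPM of EXPA1, 14.9 CPM of EXPA15, 5.07 CPM of XTH15 and 11.1 CPM of XTH9, against at most 5.73, 53.1, 0.515, 0.292 and 0.525 CPM. The library of replicate 1 at 0 h in grf6 grf8 had 22.7 CPM of XTH9, against at most 5.09 CPM. Of the libraries without a high score, WT replicate 3 at 4 h had 204 CPM of XTH24 against at most 92.8 CPM. In grf6 grf8 at 2 h, replicate 3 had 21.1 CPM of XTH22 against at least 39.3 CPM, and replicate 1 had 1.498 CPM of XTH15 against at most 0.142 CPM. The cause was not tested.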

How the results depend on the processing

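Over 1124 alternatives of called values, 1003 kept their call, 121 lost it and 0 changed direction. All tested calls held with DESeq2 (72 of 72), RLE scaling (72 of 72) and a stricter filter (47 of 47), and 487 of 576 held when 1 library was left out. Libraries of the same replicate number had correlations of −0.783 to 0.628 (60 pairs, 21 over 0.1). Pairs of unlike number are not given beside these, so whether the numbers mark shared batches cannot be told. With the replicate block 66 of 72 calls held, with 11 and 9 members becoming 12 and 9 lower in WT at 2 h and 4 h. The causes of the moves below were not tested. Members risen at 2 h in WT (3) were 1 with the stricter filter, 8 with the score as covariate and 6 with DESeq2. Members risen at 4 h in WT (6) were 1 with the stricter filter and 2 with only the groups compared, and at 4 h against 2 h (3) 0 with only the groups compared. In grf6 grf8 those risen at 2 h (1) were 4 with the covariate, 3 without the high-score libraries and 2 with only the groups compared. At 4 h (6) they were 1 with the stricter filter, 3 with the covariate, 1 without the high-score libraries and 3 with only the groups compared, and at 4 h against 2 h (3) 5 without the high-score libraries and 6 with DESeq2. Members fallen in WT were 18 at 2 h, 16 at 4 h and 1 at 4 h against 2 h without the high-score libraries, and 14 at 4 h with the covariate. Over the 3 times 1 member, EXPA1, was lower in grf6 grf8 with the covariate and with DESeq2. Leaving out 1 library gave 1 to 1 risen and 13 to 17 fallen at 2 h, 2 to 7 and 11 to 13 at 4 h, and 3 to 4 and 0 to 0 at 4 h against 2 h in grf6 grf8. In WT it gave 2 to 5 and 10 to 13, 4 to 6 and 7 to 13, and 0 to 4 and 0 to 0. It gave 0 to 0 for every genotype comparison. The spread between 4 libraries limits what could be called.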
